A study of Mus musculus with 48 samples.

Results

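Adrenergic and natriuretic peptide receptors were followed in liver, brown fat and epididymal white fat of mice with Agt, the gene of angiotensinogen, intact or targeted for deletion in hepatocytes. The members are 9 genes of the 56748 gene identifiers counted, chosen by symbol: the beta-adrenoceptors Adrb1 and Adrb3, the alpha-adrenoceptors Adra1a, Adra1b and Adra2a, the natriuretic peptide receptors Npr1, Npr2 and Npr3, and the phosphodiesterase Pde3b. All 9 were matched to an Ensembl identifier. Bulk RNA sequencing counts came from 48 libraries, 16 from liver, 16 from brown adipose tissue (BAT) and 16 from epididymal white adipose tissue (eWAT). Each tissue had 4 groups of 4 libraries: hepAGT+/+ mice (WT) and hepAGT-/- mice (KO), each housed either at thermoneutrality (TN, 30 °C) or at a room temperature of 20 to 22 °C (RT). All mice were male littermates and ate a Western diet with 21% milk fat and 0.2% cholesterol over 12 weeks, so no group on another diet is available for comparison. The strain, the age and the promoter driving the deletion are not given in the sources used here. Whether a library number marks the same mouse in every tissue is not stated.

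Noradrenaline from sympathetic nerves acts on beta-adrenoceptors, which couple through Gs to adenylyl cyclase and raise cAMP, the signal that starts lipolysis in white fat and heat production in brown fat. Alpha-1 adrenoceptors couple through Gq to calcium release, and alpha-2 receptors lower cAMP through Gi. Atrial and B-type natriuretic peptides act on NPR-A, the product of Npr1 and a membrane guanylyl cyclase that makes cGMP. NPR-B, the product of Npr2, is the guanylyl cyclase for C-type natriuretic peptide, while NPR-C, the product of Npr3, lacks a cyclase and removes the peptides by internalisation. Pde3b encodes the phosphodiesterase through which insulin lowers cAMP in adipocytes and hepatocytes.

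Total counts per library ranged from 23711728 to 36503849 in liver, from 25304872 to 39383039 in BAT and from 28656921 to 43687848 in eWAT. The targeted gene Agt followed the labels in liver but was not absent: its counts-per-million value (CPM) was 424 ± 88.4 and 482 ± 99.3 (mean ± SD, n = 4) in WT at RT and TN, against 194 ± 31.6 and 193 ± 40.6 CPM in KO, with no KO library as high as any WT library. CPM values of genes are scaled by the TMM method throughout. The tissue labels matched their markers: Alb was at 34597 CPM or more in every liver library, Ucp1 at 1301 or more in every BAT library and Adipoq at 2527 or more in every eWAT library (CPM of the library total, as for all marker values below). Skeletal muscle markers summed to over 1000 CPM in 5 of the 16 BAT libraries, with a highest value of 7034 CPM. The sums ran from 1.19 to 397 CPM in WT at RT and from 8.51 to 5240 CPM in WT at TN (medians 36.1 and 2461). They ran from 2.18 to 3542 CPM in KO at RT and from 1.57 to 7034 CPM in KO at TN. Every WT library over 1000 CPM was thus at TN, so in WT BAT muscle content and housing cannot be fully told apart. Epididymis markers summed to 987 CPM in eWAT WT RT replicate 18 and to at most 12.9 CPM in the KO eWAT libraries. Where leaving these libraries out changed whether a member passed within a tissue, the value without them is given. Without the 5 muscle-rich libraries 11 BAT libraries remain, and the WT libraries left out are all at TN. A call lost in that fit therefore also has fewer libraries behind it, and the part of muscle content in such a loss was not tested.

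The tissues differed in which of the 9 genes were highest. Levels were compared between genes as CPM per kilobase of exon. In eWAT the highest median over 16 libraries was that of Npr3, at 149.7 CPM per kb, followed by Adrb3 at 113 CPM per kb and Pde3b at 31.7 CPM per kb. In BAT the order began with Adrb3 at 54.1, Pde3b at 26.9 and Npr3 at 17.8 CPM per kb. Liver began with Adra1b at 26.7, Npr2 at 16.7 and Pde3b at 12.0 CPM per kb. White fat was thus led by the natriuretic clearance receptor and the beta-3 receptor, BAT by the beta-3 receptor, and liver by the alpha-1B receptor and NPR-B. Adra2a had the lowest median per kb in each of the 3 tissues.

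**Figure D1:**
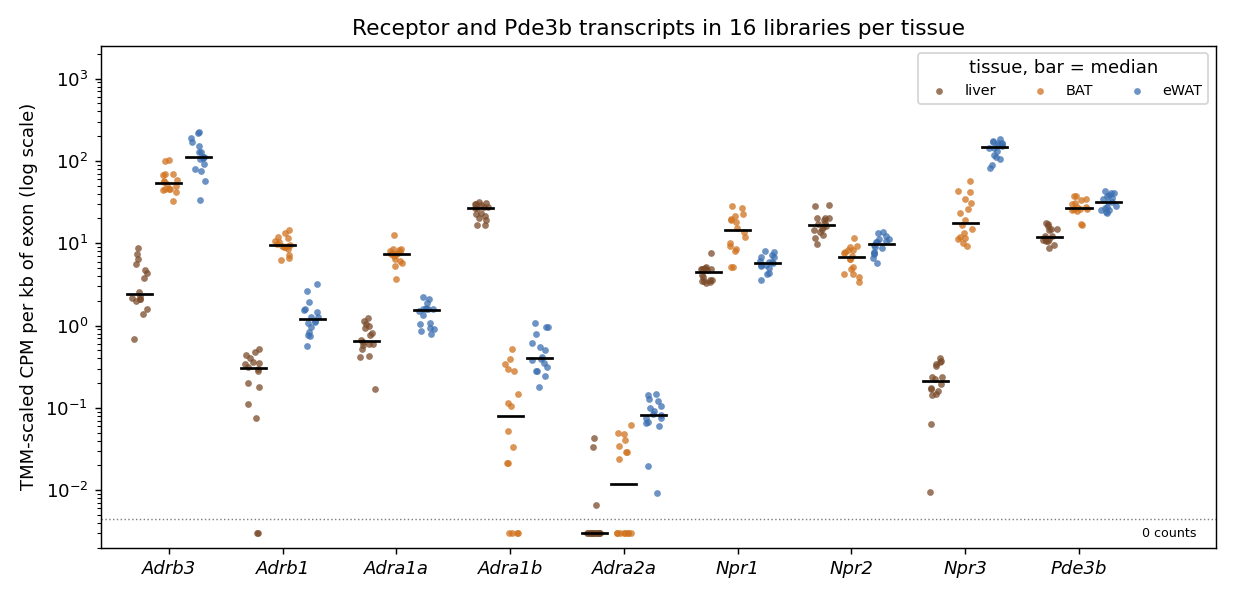
Level of each of the 9 genes (log axis, TMM-scaled CPM per kb of exon) in the 16 libraries of liver, BAT and eWAT. Points are libraries, bars are medians and libraries with 0 counts lie under the dotted line. Every liver library lies above all BAT and eWAT libraries for Adra1b, and every eWAT library above all BAT and liver libraries for Npr3. BAT and eWAT overlap for Adra1b.

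Tested across all 48 libraries (edgeR, difference of the means of 4 conditions), 8 of 9 members differed between BAT and eWAT, where 60.3% of all genes tested did. Between liver and eWAT 9 of 9 differed (73.8% of all genes), and between liver and BAT 8 of 9 (68.6%), so these shares were read against a background in which most genes differed. Against eWAT, BAT had 7.53-fold more Adrb1, 5.37-fold more Adra1a and 2.36-fold more Npr1, and eWAT had 6.72-fold more Npr3, 2.06-fold more Adrb3 and 1.45-fold more Npr2 than BAT. Liver had 48.5-fold more Adra1b than eWAT and 2.58-fold more Npr2 than BAT, while eWAT had 634-fold more Npr3 and 35.8-fold more Adrb3 than liver. The gene that did not pass in BAT against eWAT was Pde3b, with a log2 difference of -0.19 ± 0.09 (SE, adjusted p = 0.0672); with RLE scaling it passed at -0.22 (adjusted p = 0.0306), and so it did in several other alternatives, the lowest p being that without BAT KO TN replicate 5 (-0.30, adjusted p = 0.00294). Adra2a is among the members counted against eWAT, but it entered this fit only through its eWAT counts. Its highest count was 38 in eWAT, 10 in BAT and 4 in liver, and it was below the filter in liver and BAT. Its calls against eWAT are therefore not a separate result. For Adra2a no fold is given, because every library of some groups had 0 counts.

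Ordered by mean CPM over the 12 groups, neighbouring groups mostly overlapped. Adrb3 ran from 613 ± 92.8 CPM in KO eWAT at RT down to 141 ± 20.8 CPM in WT BAT at TN with every neighbour overlapping, and then dropped without overlap to the livers, led by KO at RT with 18.3 ± 9.56 CPM. Npr3 fell into 4 steps: the 4 eWAT groups from 1515 ± 146 to 939 ± 161 CPM, then BAT from 405 ± 98.3 to 183 ± 58.9 CPM, then KO BAT at RT with 98.6 ± 9.80 CPM, then the livers. Npr1 had no step at all: its order began with KO BAT at TN (113 ± 23.0 CPM), WT BAT at TN (88.2 ± 22.6), KO BAT at RT (56.3 ± 15.7) and WT BAT at RT (33.8 ± 10.6), the other groups lay between 31.1 and 17.8 CPM, and each overlapped the next. Npr2 had none either, from 114 ± 25.9 CPM in KO liver at RT to 22.7 ± 5.37 CPM in WT BAT at RT. Pde3b stepped from eWAT and BAT, whose lowest mean was 226 ± 14.4 CPM, to WT liver at TN (138 ± 29.6 CPM), and again from WT liver at RT (131 ± 14.2 CPM) to KO liver at RT (106 ± 4.84 CPM) and to KO liver at TN (90.5 ± 8.99 CPM). Adra1b stepped from the livers, whose lowest mean was 66.4 ± 11.4 CPM, to eWAT.

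Within tissues, far fewer of the genes moved. Housing at TN against RT changed 3 of 8 members tested in BAT of WT mice (32.5% of all genes tested were called, 15.9% higher and 16.7% lower) and 3 of 8 in BAT of KO mice (15.2% of all genes, 6.64% higher and 8.52% lower). In eWAT, housing changed 0 of 9 members in WT (0% of all genes) and 0 of 9 in KO (1.74%). In liver it changed 0 of 8 in WT (0.0227%) and 0 of 8 in KO (0.114%). The KO against WT comparison changed 2 of 9 members in eWAT at RT, both lower (4.34% of all genes, 3.13% lower), 0 of 9 in eWAT at TN (0.586%), 0 of 8 in BAT at RT (0.0887%), 0 of 8 in BAT at TN (0%), 0 of 8 in liver at RT (0.0853%) and 1 of 8 in liver at TN, a lower one (3.18% of all genes, 1.85% lower). No member passed the test of the genotype by housing interaction in any tissue, where 0% of all genes did, so no housing effect was shown to differ between genotypes. In that interaction test the number of members with an unadjusted p under 0.05 was 1 in liver, 0 in BAT and 1 in eWAT, and DESeq2 called 0 members in each. Among the comparisons with a count of 0 named above, the unadjusted p was under 0.05 for 1 member in eWAT of WT and 2 in eWAT of KO by housing, for 2 and 2 in liver by housing, and by genotype for 5 in eWAT at TN, 3 in BAT at RT, 1 in BAT at TN and 4 in liver at RT. DESeq2 called 1 member by housing in eWAT of KO and 1 in liver of KO, and by genotype 3 in eWAT at TN, 2 in BAT at RT, 1 in BAT at TN and 1 in liver at RT; each is given below with its gene. The member that was not tested in liver and BAT is Adra2a, whose counts were below the filter there. The median log2 change of the 8 members with housing in BAT was 0.27 in WT and 0.07 in KO, against 0.11 and 0.04 over all genes tested, and that of the 9 members with genotype in eWAT at RT was 0.20 against -0.0021. Within a tissue each group enters more than one of these comparisons, so they share libraries and are not independent.

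**Figure D2:**
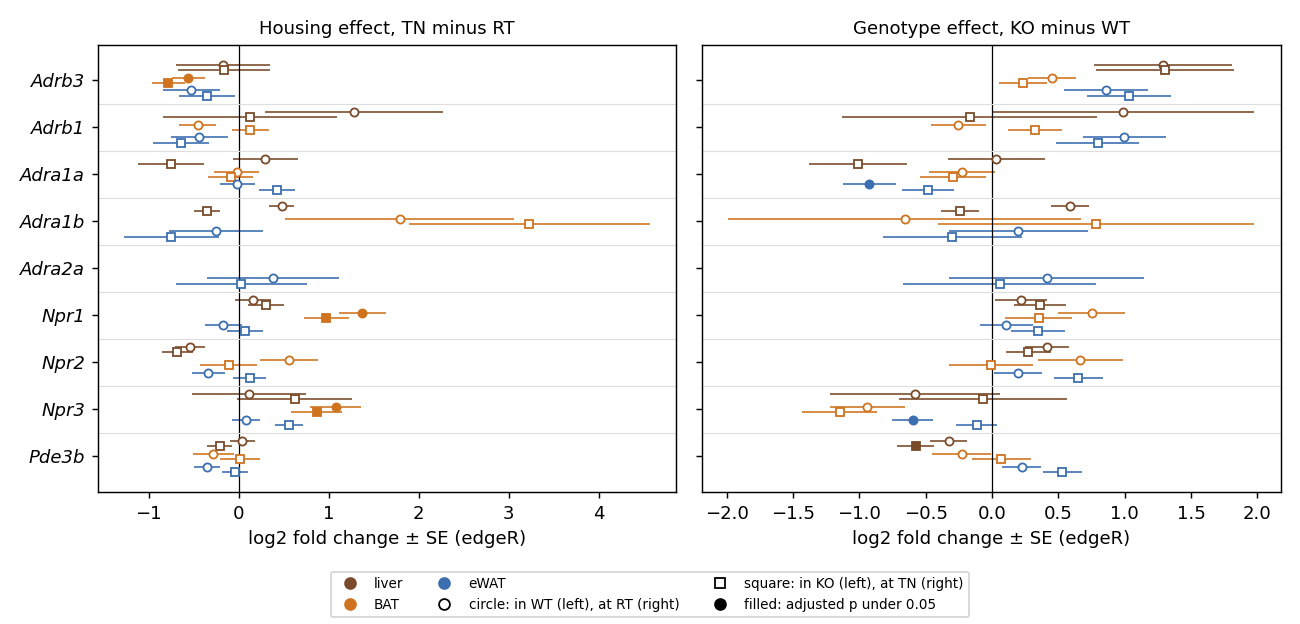
log2 fold change ± SE (edgeR) of each gene tested, for TN minus RT (left; circles WT, squares KO) and for KO minus WT (right; circles RT, squares TN), coloured by tissue; filled symbols have an adjusted p under 0.05. The filled symbols are Adrb3, Npr1 and Npr3 in BAT on the left, and Adra1a and Npr3 in eWAT and Pde3b in liver on the right.

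Adrb3 encodes the beta-3 receptor, which in rodents is the main adipocyte receptor for lipolysis and thermogenesis (chromosome 8, 27225776 to 27250616, minus strand, GRCm38). In BAT of WT mice its level was 179, 186, 226 and 231 CPM at RT and 111, 141, 154 and 156 CPM at TN. Every TN library lay under every RT library. The log2 change was -0.56 ± 0.18 (edgeR adjusted p = 0.024). In BAT of KO mice it was 198, 235, 335 and 345 CPM at RT and 149, 153, 168 and 191 CPM at TN, again without overlap, with a log2 change of -0.78 ± 0.18 (adjusted p = 0.00674). The change of WT did not pass without the 5 BAT libraries rich in muscle markers (-0.48, adjusted p = 0.0725), while that of KO did (-0.85, adjusted p = 0.0161). The WT change did not pass either without WT RT replicate 18 (-0.50, 0.0719), WT TN replicate 1 (-0.54, 0.0697) or WT TN replicate 6 (-0.44, 0.109).

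The fall of Adrb3 in BAT ran beside lower brown adipocyte markers, the 7 of which summed to 8210 to 13641 CPM in WT at RT and 4083 to 7564 at TN, and to 8016 to 11890 CPM in KO at RT and 3669 to 6400 at TN. Ucp1 weighed most in that sum, with a median of 4489 CPM over the 16 BAT libraries, against 1693 for Cidea, the next highest. Ucp1 itself fell at TN, as given below, so the sum is not a measure of brown adipocyte content alone. General adipocyte markers overlapped between temperatures: the 8 of them summed to 13031 to 17196 CPM in WT at RT and 11921 to 15406 at TN, and to 12967 to 15079 CPM in KO at RT and 12982 to 19092 at TN. Per 100 counts of those adipocyte markers, WT libraries held 0.737 to 1.59 Adrb3 counts at RT and 1.00 to 1.27 at TN, ranges that overlap, and KO libraries held 1.29 to 2.06 at RT and 0.821 to 1.45 at TN. The part of cell composition in these changes was not tested. In bulk tissue, fewer cells of a type and less RNA per cell cannot be told apart, and this holds for every result below. A gene model on the opposite strand, Gm45470, shares 839 exon bases with Adrb3 and was at a median of 18.3 CPM in BAT, 10.3 in eWAT and 0.841 in liver; since the strand setting of the counting is not given, reads of the overlap cannot be told apart.

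In eWAT the Adrb3 means were higher in KO, though neither test passed. At RT the WT libraries were at 193, 359, 379.8 and 431 CPM and the KO libraries at 513, 572, 639 and 729 CPM (log2 difference 0.86 ± 0.31, adjusted p = 0.147). The lowest WT value belongs to replicate 18, the library with epididymis markers. At TN the WT libraries were at 114, 258, 270.2 and 309 CPM and the KO libraries at 370.3, 382, 433 and 755 CPM (1.03 ± 0.32, adjusted p = 0.147). The lowest WT value there belongs to replicate 8. That library had the highest sum of fibroblast and preadipocyte markers in its group (6104 CPM, group median 3311). The groups did not overlap at either temperature. DESeq2 called the TN difference (adjusted p = 0.0333).

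Adrb3 was also counted in every liver library, at 2.33 to 29.4 CPM. WT livers had 2.33, 5.43, 7.12 and 14.6 CPM at RT and 4.69, 7.19, 7.39 and 7.67 CPM at TN. KO livers had 6.66, 15.8, 21.5 and 29.4 CPM at RT and 8.52, 12.7, 18.9 and 24.7 CPM at TN. At TN the KO livers all exceeded the WT livers (1.30 ± 0.52, edgeR adjusted p = 0.203; DESeq2 adjusted p = 0.0385), and at RT the groups overlapped (1.29 ± 0.52, edgeR adjusted p = 0.393). Adipoq was at 0 counts in 15 of the 16 liver libraries and Plin1 in 13. Per 100 counts of the 8 adipocyte markers, livers held 0.979 to 27.2 Adrb3 counts and eWAT libraries 0.328 to 2.29. Ucp1 was at 17.0 CPM in KO RT replicate 19 and at 0 in the other 15 livers; the same library had the highest hepatic Adrb3 level.

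Adrb1, the beta-1 receptor, binds noradrenaline with higher affinity than Adrb3 does and is known from heart and from brown fat precursors (chromosome 19, 56722199 to 56733113, plus strand). Its level was 21.0 to 48.5 CPM in BAT, 1.92 to 10.8 CPM in eWAT and 0 to 1.76 CPM in liver. In BAT the group means were 38.0 ± 5.91 in WT at RT, 28.0 ± 6.56 in WT at TN, 31.5 ± 2.08 in KO at RT and 35.1 ± 11.4 CPM in KO at TN, and all 4 ranges overlapped their neighbours in the order of means. The TN against RT change in WT was -0.45 ± 0.21 (adjusted p = 0.101) and passed without WT TN replicate 24 (-0.59, adjusted p = 0.0346). In eWAT at RT the WT libraries had 2.58, 3.61, 3.82 and 4.92 CPM and the KO libraries 4.32, 5.39, 8.98 and 10.8 CPM, which overlap (1.00 ± 0.31, edgeR adjusted p = 0.0796; DESeq2 adjusted p = 0.0257); without KO RT replicate 9 it passed in edgeR (1.20, adjusted p = 0.044). The count ratio of Adrb3 to Adrb1 separated the depots: group means were 93.5 to 101 in eWAT and 5.09 to 8.77 in BAT, a ratio of raw counts of genes with nearly the same exon length (3376 and 3382 bases). Within BAT the highest mean ratio, 8.77 ± 1.93, was that of KO at RT.

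Of the 3 alpha-adrenoceptors, Adra1a had the highest level per kb in both fat depots and Adra1b in liver. Adra1a, the alpha-1A receptor (chromosome 14, 66635251 to 66771168, plus strand), was at 31.9 to 111 CPM in BAT and 6.81 to 19.6 CPM in eWAT. In eWAT at RT, WT libraries had 11.7, 13.8, 16.3 and 19.6 CPM and KO libraries 6.81, 7.86, 8.07 and 9.39 CPM. All KO values were under all WT values (log2 difference -0.92 ± 0.20, edgeR adjusted p = 0.0136). At TN the WT libraries had 13.9, 14.0, 14.4 and 18.5 CPM and the KO libraries 7.53, 9.03, 13.2 and 14.0 CPM, and the difference did not pass (-0.48 ± 0.20, adjusted p = 0.283). The RT difference did not pass without WT RT replicate 18, the library with epididymis markers (-0.86, adjusted p = 0.0565), or without WT RT replicate 15 (-0.78, adjusted p = 0.0564). Mural and smooth muscle markers, a cell class that carries alpha-1 receptors, summed to 429 to 605 CPM in those WT libraries and 254 to 493 CPM in the KO libraries. Schwann cell and nerve markers were lower in KO without overlap in the same libraries, as given with Npr3 below, and the part of either cell class in the result was not tested. In BAT Adra1a kept group means between 57.5 and 70.8 CPM, with log2 changes of -0.02 ± 0.25 and -0.09 ± 0.25 by housing (adjusted p = 0.956 and 0.878). In liver at TN it averaged 8.06 ± 2.82 CPM in the WT and 3.89 ± 1.80 CPM in the KO libraries (-1.01 ± 0.37, adjusted p = 0.138).

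**Figure D3:**
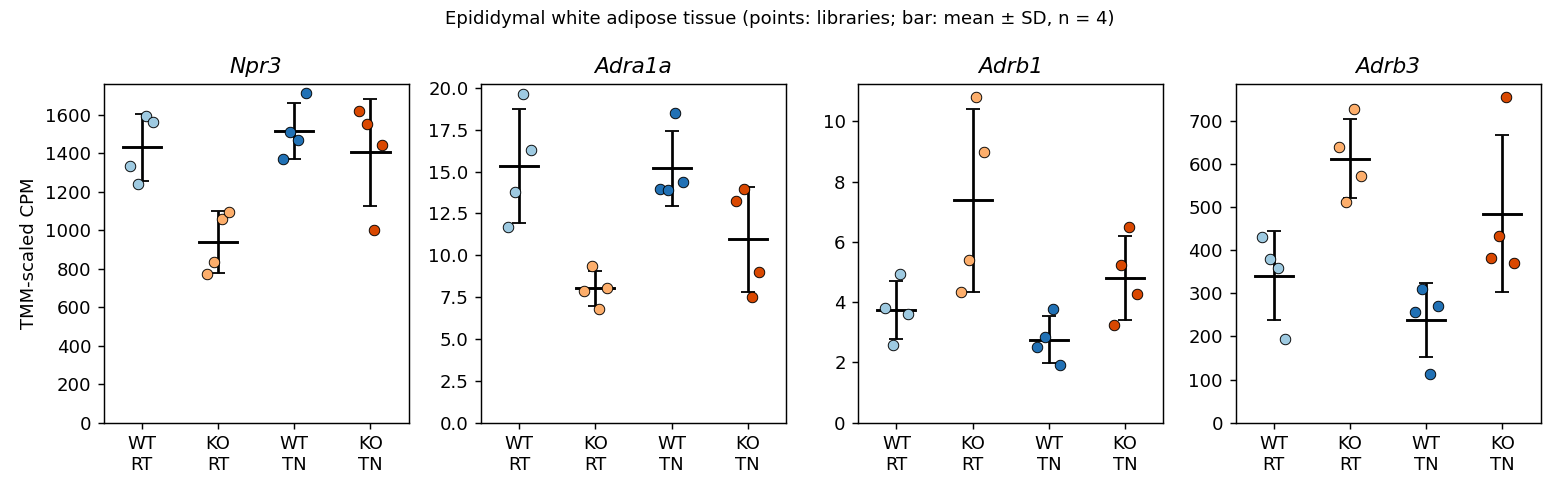
Npr3, Adra1a, Adrb1 and Adrb3 in eWAT (TMM-scaled CPM, axes from 0) in the 4 groups; points are libraries, bars are mean ± SD (n = 4). At RT the KO libraries lie under all WT libraries for Npr3 and Adra1a and above all of them for Adrb3.

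Adra1b encodes the alpha-1B receptor, through which catecholamines raise glycogen breakdown in hepatocytes (chromosome 11, 43774606 to 43901210, minus strand). At RT WT livers had 56.7, 57.1, 72.1 and 79.8 CPM and KO livers 94.2, 99.0, 103 and 107 CPM. At TN WT livers had 89.6, 90.7, 92.8 and 105 CPM and KO livers 65.2, 68.8, 77.5 and 102 CPM. The KO means were therefore above WT at RT without overlap (0.59 ± 0.14, edgeR adjusted p = 0.126; DESeq2 adjusted p = 0.0202) and under WT at TN with overlap (-0.24 ± 0.14, adjusted p = 0.42), and the interaction of -0.83 ± 0.20 did not pass (adjusted p = 0.419). In BAT Adra1b was at 0 to 1.76 CPM, with 4 libraries at 0 counts. Its BAT means were 0.171 and 0.108 CPM at RT (WT and KO) and 0.624 and 1.07 CPM at TN, while eWAT means lay between 1.31 and 2.17 CPM. The housing change differed between the depots by 2.96 ± 0.73 on the log2 scale (adjusted p = 0.00372, where 16.5% of all genes were called), although neither BAT change passed by itself (1.79 ± 1.27 and 3.23 ± 1.34, adjusted p = 0.295 and 0.116). The KO change passed without KO RT replicate 9 (5.21, adjusted p = 0.0419), a value set by counts near 0, and with a block for the replicate number the depot difference was lost (2.42, adjusted p = 0.163). The 7 hepatocyte markers matched to the counts also spread widely in BAT, from a sum of 6.77 CPM to 2660 CPM in KO TN replicate 2, the BAT library with the most Adra1b. Per 100 hepatocyte marker counts BAT libraries held 0 to 0.816 Adra1b counts and livers 0.0563 to 0.124; the part of liver RNA in the BAT values was not tested.

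Adra2a, the alpha-2A receptor, which lowers cAMP in adipocytes (chromosome 19, 54044151 to 54048982, plus strand), was close to absent from the counts. It had 0 counts in 13 of 16 livers and 8 of 16 BAT libraries, among them all 4 BAT libraries of WT at RT, where 3 counts would correspond to 0.107 to 0.168 CPM. In eWAT it was at 0.0445 to 0.704 CPM, and no comparison there passed (adjusted p from 0.843 to 0.991). At this depth a difference in Adra2a was not detectable in liver or BAT.

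Of the member changes with housing that passed, those of Npr1 and Npr3 in BAT were the largest. Both rose at TN. Npr2 did not pass in the main fit, though it did in WT without TN replicate 24, as given below. The region from 250 bases before to 50 bases after the start of each gene is shown for the 3 receptors. It was taken from RefSeq (GRCm38.p6), whose table matched 6 of the 9 members. Capitals mark TGACG, the core of the cAMP response element, and GGGCGG, the GC box, on either strand (CCGCCC is the GC box read on the other strand).
Npr1, chr3:90465817-90466116, minus strand: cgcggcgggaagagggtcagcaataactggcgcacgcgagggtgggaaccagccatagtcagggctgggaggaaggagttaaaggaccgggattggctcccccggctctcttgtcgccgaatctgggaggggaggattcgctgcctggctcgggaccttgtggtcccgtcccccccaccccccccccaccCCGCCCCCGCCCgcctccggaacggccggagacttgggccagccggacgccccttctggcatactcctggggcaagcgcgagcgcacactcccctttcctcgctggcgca
Npr2, chr4:43631685-43631984, plus strand: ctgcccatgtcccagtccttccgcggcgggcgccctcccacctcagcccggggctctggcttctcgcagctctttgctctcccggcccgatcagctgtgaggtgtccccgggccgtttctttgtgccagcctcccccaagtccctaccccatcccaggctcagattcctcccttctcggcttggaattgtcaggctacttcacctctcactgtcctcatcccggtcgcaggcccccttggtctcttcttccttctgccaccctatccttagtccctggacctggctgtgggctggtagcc
Npr3, chr15:11907322-11907621, minus strand: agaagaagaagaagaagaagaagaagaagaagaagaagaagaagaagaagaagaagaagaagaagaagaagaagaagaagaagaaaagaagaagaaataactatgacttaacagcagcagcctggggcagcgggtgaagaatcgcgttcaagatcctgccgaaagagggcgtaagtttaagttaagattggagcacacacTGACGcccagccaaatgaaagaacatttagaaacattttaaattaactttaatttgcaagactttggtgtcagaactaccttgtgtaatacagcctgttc

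The windows differed in base composition. GC content was 69.7% for Npr1, 64% for Npr2 and 39% for Npr3, whose window opens with a long run of AAG repeats. The Npr1 window held 2 GC boxes side by side, at 60 and 54 bases before the start, and CCAAT on the other strand; the Npr3 window held TGACG 50 bases before the start and CCAAT on the other strand; the Npr2 window held neither TGACG nor GGGCGG. Of 32851 promoter windows of this length, 20.8% held TGACG, 35.7% GGGCGG, 37.4% CCAAT, 13.6% the TATA box TATAAA and 1.79% the full element TGACGTCA, which contains TGACG. For Npr3 the RefSeq start lies upstream of the gene model given below. None of the 3 windows held TGACGTCA or TATAAA. The windows of Adrb1 and Adra2a, not shown, each held both TGACG and GGGCGG. These are matches of letters only, and a link to the housing changes was not tested.

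Npr1 rose in BAT at TN in both genotypes (gene at chromosome 3, 90450591 to 90465866, minus strand). WT libraries had 24.6, 24.9, 41.0 and 44.9 CPM at RT and 56.4, 91.8, 95.0 and 109.7 CPM at TN. KO libraries had 38.2, 48.6, 65.6 and 72.6 CPM at RT and 85.6, 102, 129 and 134 CPM at TN. TN and RT libraries did not overlap in either genotype, and the rise was 2.59-fold in WT (log2 1.38 ± 0.26, edgeR adjusted p = 0.000691) and 1.97-fold in KO (0.98 ± 0.25, adjusted p = 0.0144). The KO rise did not pass without the 5 BAT libraries rich in muscle markers (0.65, adjusted p = 0.18). Npr1 was at 17.3 to 38.5 CPM in eWAT and 15.5 to 36.3 CPM in liver. In eWAT the same comparison gave -0.17 ± 0.20 in WT and 0.07 ± 0.20 in KO (adjusted p = 0.975 and 0.912). The housing change of Npr1 was larger in BAT than in eWAT by 1.23 ± 0.23 on the log2 scale, averaged over genotypes (adjusted p = 0.000196).

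**Figure D4:**
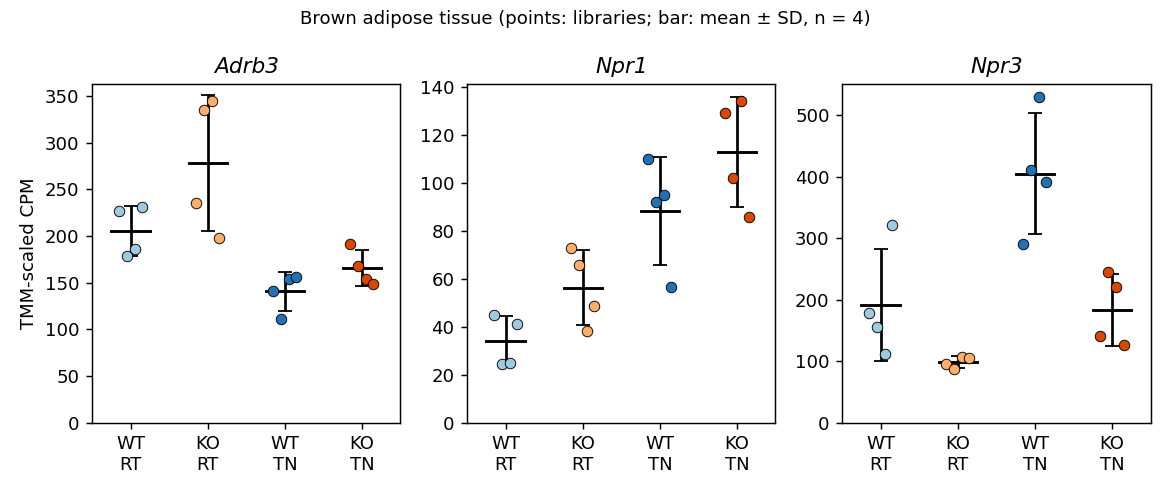
Adrb3, Npr1 and Npr3 in BAT (TMM-scaled CPM, axes from 0) in the 4 groups; points are libraries, bars are mean ± SD (n = 4). Adrb3 is lower and Npr1 higher at TN in both genotypes without overlap, and the KO libraries of Npr3 lie under all WT libraries at each temperature.

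Endothelial cells are a known site of Npr1, and endothelial markers moved with it. The 8 markers (Pecam1, Cdh5, Tek, Emcn, Erg, Robo4, Egfl7 and Tie1) summed in BAT to 153 to 423 CPM in WT at RT, 284 to 1038 in WT at TN, 407 to 821 in KO at RT and 692 to 1262 in KO at TN. Per 100 counts of these markers there were 9.51 to 18.9 Npr1 counts in WT at RT and 11.0 to 19.6 in WT at TN, ranges that overlap, and 7.13 to 9.41 in KO at RT and 11.2 to 15.5 in KO at TN, which do not. The lowest Npr1 value among WT TN libraries belonged to replicate 24, which also had the lowest endothelial sum of that group. Mural and macrophage marker sums also had higher ranges at TN, overlapping only for mural markers of WT. Not every list did: Schwann cell and nerve markers summed to 195 to 275 CPM in WT at RT and 143 to 219 at TN. In KO they summed to 147 to 216 CPM at RT and 108 to 192 at TN. Mural and smooth muscle markers summed to 341 to 531 CPM in WT at RT and 510 to 1096 at TN, and to 449 to 565 in KO at RT and 748 to 986 at TN. Macrophage markers summed to 47.0 to 126 CPM in WT at RT and 214 to 496 at TN, and to 55.8 to 66.1 in KO at RT and 186 to 263 at TN. The part of these cell types in the rise was not tested. In BAT at RT the KO mean of Npr1 was above that of WT (0.75 ± 0.25, edgeR adjusted p = 0.137), with overlapping libraries; the difference passed in DESeq2 (adjusted p = 0.0477), without the muscle-rich libraries (1.02, adjusted p = 0.0437) and without WT RT replicate 12 (0.92, adjusted p = 0.0395).

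**Figure D5:**
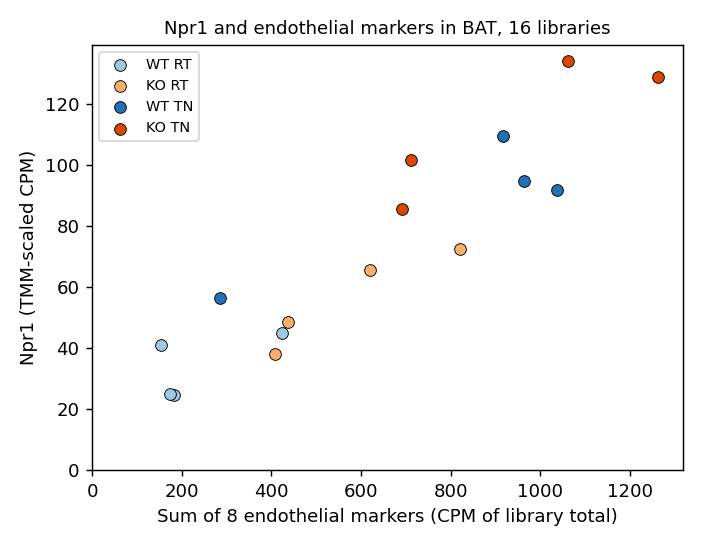
Npr1 (TMM-scaled CPM) against the sum of 8 endothelial markers (CPM of the library total) in the 16 BAT libraries, coloured by group. The 4 WT RT libraries lie at 153 to 423 CPM of markers and at most 44.9 CPM of Npr1, and the 4 KO TN libraries at 692 to 1262 CPM of markers and at least 85.6 CPM of Npr1.

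Npr3, the clearance receptor, rose in the same BAT samples (chromosome 15, 11839896 to 11907287, minus strand). WT libraries had 111, 155, 178 and 321 CPM at RT and 290.1, 391, 411 and 529.7 CPM at TN. KO libraries had 86.6, 94.7, 106 and 107 CPM at RT and 126, 141, 221 and 246 CPM at TN. TN and RT libraries overlapped in WT, through replicate 18 at RT, and not in KO. The rise was 2.11-fold in WT (log2 1.08 ± 0.28, edgeR adjusted p = 0.00771) and 1.83-fold in KO (0.87 ± 0.28, adjusted p = 0.0461). Without the 5 muscle-rich BAT libraries neither passed, with log2 changes of 1.10 in WT and 1.14 in KO (adjusted p = 0.0684 and 0.184). The KO value lies at the edge of the threshold and was lost when any of 10 libraries was left out, with log2 changes from 0.72 to 0.91 (adjusted p from 0.0528 to 0.121). Fibroblast and preadipocyte markers, a list that includes Mfap5, the gene whose profile was most like that of Npr3, summed to 269 to 402 CPM in WT at RT and 1051 to 1689 at TN, and to 223 to 363 in KO at RT and 838 to 1370.5 at TN. Per 100 counts of these 8 markers there were 21.0 to 84.2 Npr3 counts in WT at RT (median 42.8) and 26.03 to 40.2 at TN (31.4), and 24.7 to 34.2 in KO at RT (29.8) and 11.0 to 31.6 at TN (20.4). On that scale the TN medians were the lower ones and the ranges overlapped, and the part of these cells in the rise was not tested. The depot difference of the housing change was 0.66 ± 0.42 for Npr3 (adjusted p = 0.319), so its rise was not shown to be larger in BAT.

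By genotype, Npr3 fell in KO eWAT at RT, and its BAT values were lower in KO without passing. In BAT, KO libraries were under all WT libraries at both temperatures, yet neither difference passed in edgeR (-0.94 ± 0.28, adjusted p = 0.118 at RT; -1.15 ± 0.28, adjusted p = 0.598 at TN), and both passed in DESeq2 (adjusted p = 0.019 and 0.0317). In eWAT at RT, WT libraries had 1238, 1332, 1559 and 1595 CPM and KO libraries 773, 833, 1057 and 1095 CPM. All KO libraries were lower, and the difference passed (-0.60 ± 0.16, edgeR adjusted p = 0.0361). It was lost when any of 9 eWAT libraries was left out, with log2 differences from -0.67 to -0.49 (adjusted p from 0.052 to 0.145), the highest p without WT RT replicate 18. In the same comparison 8 Schwann cell and nerve markers summed to 54.4 to 64.4 CPM in WT and 34.2 to 47.4 CPM in KO, without overlap, while fibroblast and preadipocyte markers overlapped, at 2267 to 2666 and 2241 to 2676 CPM, as did the mural markers given above. The part of these cells in the Npr3 difference was not tested. At TN, WT libraries had 1367, 1469.6, 1510.0 and 1714 CPM and KO libraries 1003, 1444, 1549 and 1619 CPM (-0.12 ± 0.15, adjusted p = 0.803). The TN against RT change in KO was 0.56 ± 0.16, which did not pass in edgeR (adjusted p = 0.0698) and passed in DESeq2 (adjusted p = 0.0115), without KO TN replicate 5 (0.68, adjusted p = 0.0193) and without KO RT replicate 16 (0.62, adjusted p = 0.0486). In liver Npr3 was at 0.0880 to 3.79 CPM.

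The balance of Npr1 to Npr3 is a usual way to set the signalling receptor against the clearance receptor. As a ratio of raw counts, not per length, it was 0.190 ± 0.0575 in BAT of WT at RT and 0.231 ± 0.103 at TN, and 0.585 ± 0.209 in KO at RT and 0.654 ± 0.208 at TN (mean ± SD, n = 4). The lowest KO ratio was 0.355 at RT and 0.415 at TN, against highest WT ratios of 0.252 and 0.378. In eWAT the ratio was 0.0197 ± 0.00771 and 0.0321 ± 0.0115 in WT and KO at RT and 0.0162 ± 0.00221 and 0.0228 ± 0.00440 at TN. Every eWAT library was thus under every BAT library, and within BAT the KO ratios lay above the WT ratios at the same temperature while the RT and TN ranges of each genotype overlapped. These ratios were not tested.

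Npr2, the receptor of C-type natriuretic peptide (chromosome 4, 43631935 to 43651244, plus strand), was highest in liver. WT livers had 67.6, 82.4, 93.6 and 95.8 CPM at RT and 45.6, 53.7, 63.5 and 75.4 CPM at TN, and KO livers had 88.4, 94.6, 134 and 138 CPM at RT and 58.7, 69.3, 73.5 and 80.2 CPM at TN. The means were lower at TN in both genotypes, and neither change passed in edgeR (-0.54 ± 0.17, adjusted p = 0.4; -0.68 ± 0.17, adjusted p = 0.095), while the KO change passed in DESeq2 (adjusted p = 0.021) and without the filter on low counts (0.0394). In BAT the WT libraries had 18.2, 19.7, 22.5 and 30.3 CPM at RT and 15.7, 38.6, 38.7 and 41.8 CPM at TN (0.56 ± 0.32, adjusted p = 0.193). The low TN value is that of replicate 24, and without it the change passed (0.80, adjusted p = 0.031), as it did without all 5 muscle-rich libraries, of which it is one (0.82, adjusted p = 0.0194). In eWAT at TN the KO mean of 54.3 ± 6.62 CPM stood above the WT mean of 34.5 ± 5.74 CPM (0.65 ± 0.18, edgeR adjusted p = 0.0952; DESeq2 adjusted p = 0.0196). Opposite-strand gene models overlap each receptor gene: Gm16048 shares 559 exon bases with Npr1, Gm12473 shares 266 with Npr2 and Gm5144 shares 321 with Npr3, at medians of at most 1.52, 0.731 and 6.39 CPM in any tissue.

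Pde3b (chromosome 7, 114415281 to 114539251, plus strand) varied least between the fat depots. It was at 149.8 to 343 CPM in BAT, 210.1 to 389.8 CPM in eWAT and 79.8 to 162 CPM in liver. BAT group means were 287 ± 30.0 in WT at RT, 242 ± 78.7 in KO at RT, 238 ± 9.70 in WT at TN and 251 ± 77.5 CPM in KO at TN, and no BAT comparison passed. In liver at TN, WT libraries had 97.1, 137, 157 and 162 CPM and KO libraries 79.8, 86.7, 95.8 and 99.7 CPM. The groups overlap through WT replicate 7, and KO was lower by 0.58 ± 0.14 on the log2 scale (-0.58, edgeR adjusted p = 0.0256). The difference was lost without any of 5 TN libraries (WT replicates 1, 6 and 24, KO replicates 2 and 4), with log2 values from -0.58 to -0.50 (adjusted p from 0.0636 to 0.0963). At RT the livers had 131 ± 14.2 CPM in WT and 106 ± 4.84 CPM in KO (-0.33 ± 0.14, adjusted p = 0.404). In eWAT at TN the direction was the opposite, 226 ± 14.4 CPM in WT and 327 ± 58.9 CPM in KO (0.53 ± 0.14, edgeR adjusted p = 0.0901; DESeq2 adjusted p = 0.0133). Macrophage markers in liver at TN summed to 232 to 335 CPM in WT and 323 to 826 in KO, and their part in the Pde3b difference was not tested.

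The rest of the signalling pathway was described with 92 genes in 9 lists. In BAT at TN against RT, 30 of 81 tested were called in WT (17 higher, 13 lower) and 16 of 81 in KO (7 higher, 9 lower), against the 32.5% and 15.2% of all genes given above. Adra1d, the alpha-1D receptor, rose in KO (1.26 ± 0.30, adjusted p = 0.00788). Among the Gs and cAMP genes, Adcy5, a cyclase, rose in both genotypes (1.98 and 2.34), as did Adcy7 (1.47 and 0.94). Adcy3 and Gnas, which encodes the Gs alpha subunit, fell in KO (-1.07 and -0.87). Of that list 10 of 17 tested were called in WT (7 higher, 3 lower) and 5 of 17 in KO (3 higher, 2 lower). Genes were named up to a limit per list and comparison, so Adcy3 and Gnas may also be among the WT calls. Ide, which degrades insulin and atrial natriuretic peptide, fell in both genotypes (-1.27 and -0.92). The phosphodiesterase Pde7b fell in both (-1.45 and -1.61), and Pde4b rose in WT (1.48). The WT values of Adra1d, Adcy3 and Gnas are not given here. In BAT 0 of 81 list genes passed the genotype by housing interaction, so no change was shown to differ between genotypes.

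Of 12 targets of cAMP tested in BAT, 2 rose and 3 fell in WT, where 32.5% of all genes were called, and 0 rose and 2 fell in KO, where 15.2% were, so these counts lie near the background. Ucp1, the uncoupling protein of heat production, fell from 8569.7 ± 2651 to 2377 ± 1599.5 CPM in WT (-1.86 ± 0.39, adjusted p = 0.00175) and from 6878 ± 1788 to 2079 ± 757 CPM in KO (-1.76 ± 0.39, adjusted p = 0.00568). Nr4a1 and Nr4a3, immediate early nuclear receptors, rose in WT (2.90 and 2.51). In the cGMP arm, Gucy1b1, a subunit of the soluble cyclase, rose in WT (1.06 ± 0.28, adjusted p = 0.00691), 1 of 4 genes tested, and 0 of 4 were called in KO. Arrb2, which uncouples receptors, rose in both genotypes (1.47 and 0.64).

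In the other comparisons within a tissue the lists gave fewer calls. In eWAT of KO against WT at RT, 13 of 84 tested were called (3 higher, 10 lower), against 4.34% of all genes. Adcy5 fell from 201 ± 64.1 to 65.9 ± 18.6 CPM (-1.60 ± 0.25, adjusted p = 0.00332), and Pde7a and Pde7b fell (-1.39 and -1.40), whereas Pde4b, Pde1a and Ppargc1a, the coactivator of mitochondrial genes, rose (1.01, 0.89 and 1.30). In liver of KO against WT at TN, 7 of 77 were called (3 higher, 4 lower), against 3.18% of all genes: Mme, neprilysin, which degrades natriuretic peptides, fell from 114 ± 39.9 to 48.6 ± 11.9 CPM (-1.20 ± 0.23, adjusted p = 0.00997), and the protein kinase A subunits Prkar2a and Prkacb fell (-0.61 and -0.55). Rgs2, which limits Gq signalling, rose there (1.22) and in KO livers at TN against RT (1.71), the only list gene called in the latter comparison. By housing in eWAT of KO, Arrb1 and Adcy9 rose (0.83 and 0.79), the 2 of 84 called, against 1.74% of all genes. In BAT of KO against WT at RT, 1 of 81 was called, Rgs4 (1.33, adjusted p = 0.0499), against 0.0887% of all genes.

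Finally, for each member the genes of most similar profile were found over the 12 group means, by the root mean square (RMS) difference of centred log2 values. Pde3b had the closest neighbours, Vps8 (RMS 0.152), Drosha and Gnb1, followed by Npr2, with Rffl (0.195) and AW146154, and Npr1, with Rnf208 (0.203), Tie1 and Best3. Tie1 is an endothelial receptor kinase and a member of the endothelial list above. Npr3 lay nearest to Mfap5 (0.408), Cbr2 and Scn7a, Adrb3 to Cdkn2c (0.333), Ift57 and Afap1, Adrb1 to Hoxa4 (0.490), Svopl and BC043934, and Adra1a had Slc16a1 (0.382) and Pde4d among its nearest. Adra1b was most like Krt18 (0.475) and Kmo, which are abundant in liver. The neighbours of Adra2a, led by Rcn1 (0.287), rest on counts near 0. With 12 means dominated by tissue, these are descriptions of shape over tissues.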

How the data were processed

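The authors deposited raw counts per gene for each of the 48 libraries; per the submitters' processing notes, fastp, STAR 2.6.1d, featureCounts 1.5.0-p3 and the GRCm38 (mm10) build were used, and the strand setting and annotation release are not given in the sources used here. Per the labels' protocols, snap-frozen tissue gave total RNA and NEBNext Ultra libraries. Symbols and coordinates came from GENCODE M21 (GRCm38), which matched 52073 of 56748 identifiers; 4623 are numbered above any in that release, so the authors' annotation may differ. Each tissue was fitted over its 16 libraries (4 group means) in R 4.3.3 with edgeR 4.0.16: TMM scaling, a filterByExpr minimum of 10 counts, robust quasi-likelihood F tests, two-sided, Benjamini-Hochberg over all genes, threshold 0.05. A fit over 48 libraries compared tissues. DESeq2 1.42.0, other scaling and filters, and leaving out each library were alternatives; scripts were tested on simulated data. Named genes are the 9 members, up to 4 called genes per list and comparison (largest change, mean of at least 1 CPM) and the 3 nearest profiles; a few genes this rule picks are not reported here. Members and lists were chosen with earlier results of these data known. No replicate pair looked like a library deposited more than once. In BAT of WT mice the median log2 change of all genes with housing was 0.112. Labels call the replicates biological.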

Additional observations from a re-analysis of the deposited data

Results flagged for a closer look

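Of the 108 sets of 4 libraries (9 genes in 12 groups), 9 held a library whose gap to the others passed the 95% critical value of Dixon's test. Adra2a had 0 counts in every library of liver KO RT and of BAT WT RT, so those sets could not be examined. Among sets that could be, chance alone gives about 1 in 20. Adrb3 was at 4.69 CPM in liver WT TN replicate 7, with the others at 7.19 to 7.67, and at 755 CPM in eWAT KO TN replicate 5, with the others at 370.3 to 433. In eWAT WT TN replicate 8, Adra1a was at 18.5 CPM, with the others at 13.9 to 14.4, and Adra1b at 3.23 CPM, with the others at 0.948 to 1.28. Adra2a was at 0.209 CPM in liver WT RT replicate 18, at 0.162 in liver WT TN replicate 6 and at 0.0323 in liver KO TN replicate 5, with the other libraries of each group at 0; these rest on 4, 4 and 1 counts, and any single count stands out in such a group, so these 3 sets cannot be read against the chance rate. Npr1 was at 23.0 CPM in liver WT RT replicate 11, with the others at 15.5 to 16.5. Npr2 was at 15.7 CPM in BAT WT TN replicate 24, with the others at 38.6 to 41.8. Between depots, the change with housing was larger in BAT than in eWAT for Npr1 by 1.23 and for Adra1b by 2.96 on the log2 scale, each by the test of that difference. The Adra1b value rests on BAT counts near 0 and did not pass with a block for the replicate number, while that of Npr1 did.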

How the results depend on the processing

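Of 161 member values tested, 36 passed; 39 values that did not pass changed sign under some alternative, and no value that passed did. With DESeq2 the number of members called became 1 for TN against RT in liver of KO (also 1 without the filter on low counts), 1 for KO against WT in liver at RT, 2 in liver at TN, 2 in BAT at RT, 1 in BAT at TN and 3 in eWAT at TN, 3 in eWAT at RT with Adrb1 added, 1 for TN against RT in eWAT of KO, and 9 for BAT against eWAT with Pde3b added. Without the 5 BAT libraries over 1000 CPM of muscle markers, an alternative chosen after seeing the data, 1 member remained for TN against RT in BAT of KO 1 was called for KO against WT in BAT at RT, and the 3 for TN against RT in BAT of WT became 2, with Adrb3 and Npr3 lost and Npr2 gained. Leaving out each library in turn gave 2 to 5 members for TN against RT in BAT of WT, 2 to 3 in BAT of KO, 0 to 1 for KO against WT in liver at TN, in BAT at RT and for TN against RT in eWAT of KO, 0 to 2 for KO against WT in eWAT at RT, and 8 to 9 for BAT against eWAT; the other counts were constant. Replicate numbers repeat across tissues. In 35 same-numbered pairs the correlation of deviations ran from -0.239 to 0.122, with 1 pair over 0.1. In 157 pairs of different numbers it ran from -0.228 to 0.223, with 11 over 0.1. Deviations of 1 mouse need not correlate between tissues, so this check cannot decide whether equal numbers mark the same mouse. The main fit over 48 libraries ignores any such pairing. With the replicate number as a block, 1 member passed the depot difference of housing, Npr1 (1.11, adjusted p = 0.0137), while Adra1b was lost (2.42, adjusted p = 0.163), and Pde3b passed for BAT against eWAT (-0.29, adjusted p = 0.0136). The causes of these shifts were not tested. Over all genes, DESeq2 called 981 genes for KO against WT in BAT at RT, where edgeR called 16, 1509 in eWAT at RT, where edgeR called 821, and 1111 in liver at TN, where edgeR called 560. Depth limits Adra2a in every tissue and Adra1b in BAT, both near 0 counts.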
